A study of Rattus norvegicus with 69 samples.

Results

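The corticosteroid receptor axis was followed here through 5 genes: Hsd11b1 (local activation of the hormone), Nr3c2 and Nr3c1 (the mineralocorticoid and glucocorticoid receptors), Fkbp4 (a receptor cochaperone) and Crhbp (the binding protein of corticotropin releasing hormone, CRH). Members were all probe sets of an Affymetrix rat genome array whose annotated gene symbol was one of these 5, which gave 11 of the 8799 probe sets: 1 for Hsd11b1, 2 for Nr3c2, 3 for Nr3c1, 3 for Fkbp4 and 2 for Crhbp. RNA of the hippocampal CA1 region of 69 male F344 rats, 3 to 5 months old, was hybridized to 1 array per animal. Sleep deprived (SD) rats spent 24 or 72 hours with a cage mate on platforms standing in water, NES rats (stress of an unfamiliar environment) spent 24 or 72 hours in the same chambers with a grid laid over the platforms so that sleep was not prevented, and home cage (HC) rats stayed in their cages. Cohort 1 held 8 24SD, 8 72SD, 10 24NES, 6 72NES and 5 HC animals, and cohort 2 held 8 24SD, 12 72SD and 12 HC animals. In cohort 1, active avoidance training had preceded the treatment of the SD and HC animals. The labels do not say which animals shared a chamber, so each p treated the animals as independent, and SD and NES of cohort 1 share the same 5 HC arrays.

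Corticosterone, the main glucocorticoid of the rat, crosses into hippocampal cells and binds the mineralocorticoid receptor at low hormone levels and the glucocorticoid receptor at the higher levels of stress. Inside cells 11-beta-hydroxysteroid dehydrogenase type 1, the product of Hsd11b1, regenerates the active hormone from its inert 11-keto form. Both receptors wait in the cytoplasm in a complex with the chaperone HSP90, where the immunophilin FKBP52, the product of Fkbp4, aids hormone binding and transport to the nucleus. CRH, the peptide that starts the pituitary and adrenal response and is also released in the hippocampus, is bound and held from its receptors by the secreted CRH binding protein.

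Values are log2 of the deposited MAS5 signal, so a difference of 1 is a doubling of signal. Tests used limma with cohort as a term for SD (53 arrays) and cohort 1 alone for NES (21 arrays). The brightest probe set stood for a gene where its mean signal was in the upper 50% of all probe sets, above 440.0, and this gave 2697 genes. Hsd11b1, Nr3c2, Fkbp4 and Crhbp passed with 8 of the 11 probe sets. Nr3c1 did not pass, with mean signals of 366.0, 242.8 and 34.7 in its 3 probe sets, and it was tested in a fit of all 8740 probe sets other than controls, as were second probe sets. Adjusted p-values are Benjamini-Hochberg values over all features of the fit they come from, and calls were made at 0.05. Median signals of the arrays ran between 400.5 and 484.9. The CA1 marker Pou3f1 was well measured (mean log2 signal 11.32), as were Neurod1 of the dentate gyrus (11.01) and the hemoglobin gene Hbb of blood (13.04), and the other genes that define CA1 were not among the annotated probe sets. RNA from fewer cells of a type and less RNA per cell cannot be told apart in such tissue blocks.

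Hsd11b1 rose after 24 hours of SD and was the single member past the adjusted test in the fit over both cohorts. In cohort 1 its log2 signal ran between 12.40 and 12.70 with a median of 12.64 in 8 24SD arrays, between 12.41 and 12.75 with a median of 12.53 in 8 72SD arrays, and was 12.55, 12.51, 12.35, 12.58 and 12.58 in the 5 HC arrays. In cohort 2 it ran between 12.28 and 13.03 with a median of 12.87 in 8 24SD arrays, between 12.37 and 12.94 with a median of 12.75 in 12 72SD arrays, and between 12.22 and 12.85 with a median of 12.46 in 12 HC arrays. Groups overlapped in both cohorts, but 7 of 8 24SD arrays lay above the HC mean in each cohort, and 6 of 8 in cohort 1 and 5 of 8 in cohort 2 lay above the highest HC array.

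The fitted 24SD difference of Hsd11b1 from HC was 0.22 ± 0.061 (SE, 53 arrays, adjusted p = 0.0476), a 1.16-fold higher signal with a 95% confidence interval of 1.07 to 1.27. Of the 4 members in the gene-level fit 1 was called, against 1.45% of all 2697 genes (20 higher and 19 lower, or 30 and 4 with median centred arrays), and 2 of 4 had an unadjusted p under 0.05, against 19.2% of all genes. In the fit of every probe set 0 of 11 members were called, against 0.206% of 8740 probe sets, and Hsd11b1 then had an adjusted p of 0.0881. There 2 of 11 had an unadjusted p under 0.05, against 14.8% of all probe sets. The call of Hsd11b1 was also lost in 31 of 53 fits that left out 1 array, with adjusted p between 0.0138 and 0.0909 and a difference between 0.20 and 0.26 throughout. After 72 hours of SD the difference was 0.15 ± 0.057 (unadjusted p = 0.0125, adjusted p = 0.423).

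The Hsd11b1 difference from HC was larger in cohort 2 than in cohort 1. Fitted within cohort 2, 24SD stood 0.30 ± 0.089 and 72SD 0.19 ± 0.080 above HC, while within cohort 1 the differences were 0.094 ± 0.076 and 0.045 ± 0.076. Neither cohort alone gave a call, with adjusted p of 0.254 in cohort 2 and 0.587 in cohort 1 at 24 hours. Of all genes 0% were called at 24SD in cohort 2 and 0.853% in cohort 1, so the missing call in cohort 2 was not particular to Hsd11b1. The difference between the cohorts' 24SD responses was 0.20 ± 0.12 (unadjusted p = 0.113, adjusted p = 0.701), so a difference between cohorts was not resolved. The sources list avoidance training for cohort 1 only and describe a lower array background in cohort 2. For every member, cohort, training and background therefore cannot be told apart. HC levels of Hsd11b1 were close in the cohorts, at 12.50 ± 0.16 in cohort 2 and 12.52 ± 0.095 in cohort 1 (SD, n = 12 and 5).

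In the NES arrays Hsd11b1 lay on the other side of HC. The sources do not list the NES animals among those trained, so NES and any effect of training cannot be told apart in the comparisons of NES with HC and with SD. In 10 24NES arrays it ran between 11.74 and 12.50 with a median of 12.33, and in 6 72NES arrays between 12.27 and 12.76 with a median of 12.32, against 12.35 to 12.58 in the 5 HC arrays. All 10 24NES arrays lay below the HC mean and 6 of them below the lowest HC array; 4 of 6 72NES arrays lay below the lowest HC array. The 24NES difference from HC was -0.24 ± 0.11 (unadjusted p = 0.0372, adjusted p = 0.290), and the 72NES difference was -0.13 ± 0.12 (adjusted p = 0.912), so neither passed the test. No member passed in limma after 24 hours of NES (0 of 4, against 0.445% of all genes), with 1 of 4 at an unadjusted p under 0.05, against 15.1%. After 72 hours 0 of 4 passed, against 0%, with 0 of 4 at an unadjusted p under 0.05, against 5.97%.

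In the direct comparison at 24 hours in cohort 1, Hsd11b1 had the smallest p of the 4 members tested. Its signal was 0.33 ± 0.079 higher in 24SD than in 24NES, a ratio of 1.26 with a 95% confidence interval of 0.17 to 0.49 on the log2 scale. Its p of 0.000175 had rank 3 of 2697 genes, with an adjusted p of 0.111 that missed the threshold. Only 1 gene of the array passed this comparison, 0.0371%, and 0 of 4 members did in limma, with 1 of 4 at an unadjusted p under 0.05, against 6.08% of all genes. In 7 of 8 24SD arrays Hsd11b1 lay above the highest of the 10 24NES arrays. At 72 hours the difference of SD from NES was 0.17 ± 0.090 (unadjusted p = 0.0651, adjusted p = 0.692). Without the brightest 72NES array the 72NES difference from HC was -0.20 ± 0.11 (unadjusted p = 0.0898, adjusted p = 0.991). That of 72SD from 72NES was then 0.24 ± 0.088 (unadjusted p = 0.00865, adjusted p = 0.938), so neither passed. That array also had the highest 3′ to 5′ GAPDH signal ratio of the series, 1.26, against 0.976 as the lowest of its group.

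**Figure D1:**
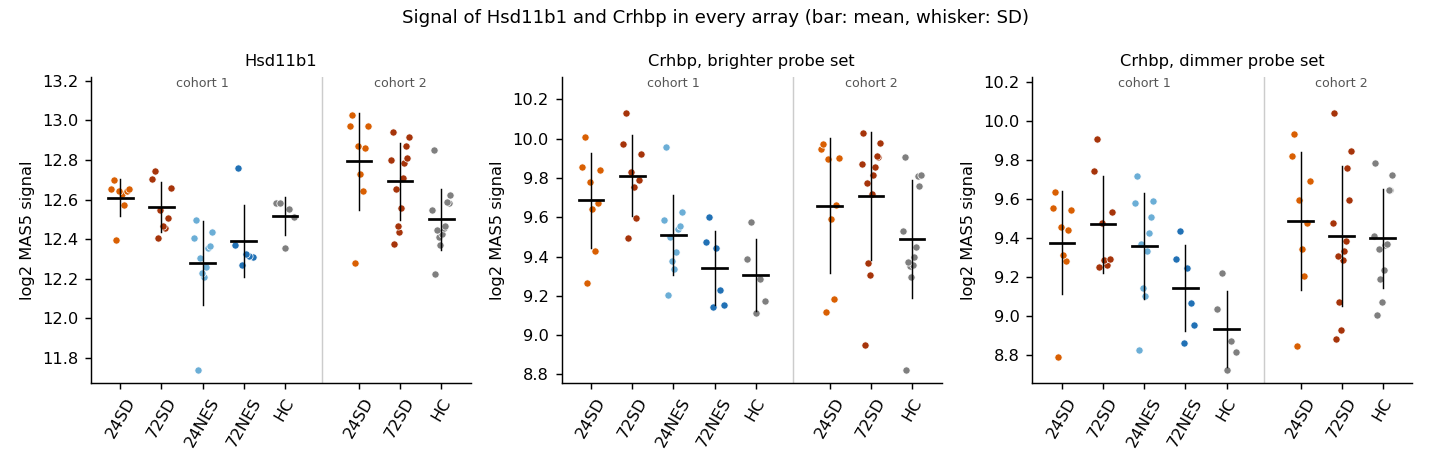
Log2 MAS5 signal of Hsd11b1 and of both Crhbp probe sets in every array, by group within cohort 1 (left of the line) and cohort 2; points are arrays, bars are means and whiskers are SD. Hsd11b1 has its highest mean, 12.79, in 24SD of cohort 2 and its lowest, 12.28, in 24NES; both Crhbp probe sets have their lowest mean, 9.31 and 8.93, in HC of cohort 1.

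Ordered by mean, Hsd11b1 ran 12.79 (24SD, cohort 2), 12.69 (72SD, cohort 2), 12.61 (24SD, cohort 1), 12.56 (72SD, cohort 1), 12.52 (HC, cohort 1), 12.50 (HC, cohort 2), 12.39 (72NES) and 12.28 (24NES). All 4 SD means thus lay above both HC means, and both NES means below them. No step between neighbours in that order was larger than the SD of the arrays, the largest being 0.60 of the larger SD of the pair. Summed signals of the astrocyte list, with 9 of 13 genes measured, ran in log2 between 16.24 and 16.74 in 24NES, between 16.57 and 16.74 in 24SD of cohort 1 and between 16.51 and 16.64 in HC of cohort 1. Those of the microglia and macrophage list, with 11 of 14 genes measured, ran between 13.87 and 14.57 in 24NES, between 14.40 and 14.57 in 24SD and between 14.39 and 14.57 in HC of cohort 1. Among single astrocyte genes, at 24SD 3 of 9 were lower than in HC and 0 higher at an unadjusted p under 0.05, against 19.2% of all genes. In sign 4 of the 9 lay above HC, and the median was -0.03, against -0.02 over all genes. The 1 called, against 1.45% of all genes, was Kcnj10, a potassium channel gene. It fell by 0.69 ± 0.19 (adjusted p = 0.0476) and was at -1.79 ± 0.48 in 24NES against HC (adjusted p = 0.125). Of the dentate granule cell list 1 of 6 tested genes was called at 24SD, against 1.45% of all genes. It was Neurod1, which rose by 0.36 ± 0.098 (adjusted p = 0.0412), while only 3 of the 6 lay above HC, with a median of 0.07. The blood list, with 3 of 7 genes measured, ran between 12.27 and 13.53 in 24NES, between 12.62 and 13.53 in 24SD and between 13.53 and 13.73 in HC of cohort 1, and between 13.19 and 13.84 in 24SD and between 12.86 and 13.72 in HC of cohort 2. The part of these lists in the Hsd11b1 levels was not tested.

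Nr3c2, the mineralocorticoid receptor, showed no difference between groups that passed the test. Its brighter probe set (M36074_at) averaged 10.72 ± 0.12 in 24SD, 10.70 ± 0.19 in 72SD, 10.76 ± 0.27 in 24NES, 10.77 ± 0.14 in 72NES and 10.60 ± 0.22 in HC of cohort 1 (SD, n = 8, 8, 10, 6 and 5), the 5 HC arrays being at 10.79, 10.46, 10.28, 10.77 and 10.68. In cohort 2 it averaged 10.83 ± 0.15 in 24SD, 10.84 ± 0.18 in 72SD and 10.70 ± 0.32 in HC (SD, n = 8, 12 and 12). Every treated mean was above its own HC mean, and every treated group overlapped with HC. The differences from HC were 0.13 ± 0.075 for 24SD (unadjusted p = 0.0968, adjusted p = 0.353) and 0.12 ± 0.070 for 72SD (unadjusted p = 0.0828, adjusted p = 0.590), with 95% confidence intervals of -0.02 to 0.28 and -0.02 to 0.27.

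NES gave the same sign for Nr3c2, with 0.17 ± 0.13 at 24 hours and 0.18 ± 0.14 at 72 hours against the shared HC arrays (adjusted p = 0.557 and 0.907). With each array left out in turn these ran between 0.09 and 0.22 and between 0.10 and 0.23, and both were lowest without HC replicate 3. SD against NES at matched duration gave -0.04 ± 0.097 and -0.08 ± 0.11. The second probe set of Nr3c2 (M36074_g_at), from the same GenBank entry, had 0.22 ± 0.12 for 24SD and 0.09 ± 0.11 for 72SD against HC, and the pair of probe sets shared r = 0.60 over 69 arrays once group and cohort means were removed. The cohorts' 24SD responses of the brighter probe set differed by -0.0021 ± 0.16, with a 95% confidence interval of -0.32 to 0.31, which leaves room for differences as large as the response itself.

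Nr3c1, the glucocorticoid receptor, was measured by 3 dim probe sets whose differences from HC varied in sign and size. The brightest (M14053_at) averaged 8.40 ± 0.30 in 24SD, 8.31 ± 0.49 in 72SD, 8.59 ± 0.23 in 24NES, 8.35 ± 0.28 in 72NES and 8.36 ± 0.38 in HC of cohort 1. In cohort 2 it averaged 8.56 ± 0.23 in 24SD, 8.69 ± 0.26 in 72SD and 8.62 ± 0.27 in HC (SD, n as above). Its differences from HC were -0.0098 ± 0.11 at 24SD and 0.02 ± 0.10 at 72SD, with 95% confidence intervals of -0.23 to 0.21 and -0.19 to 0.23. Changes within these intervals were not resolved at this number of arrays.

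The second Nr3c1 probe set (rc_AA893618_s_at, of a type that can share probes between transcripts) spread over 6.21 to 8.25 in 24SD arrays of cohort 1 alone, and its differences were -0.17 ± 0.16 and -0.02 ± 0.15. The third (rc_AI137538_at) lay at the 10.4 percentile of all probe sets. It averaged 4.79 ± 0.49, 4.97 ± 0.26 and 4.94 ± 0.33 in 24SD, 72SD and HC of cohort 2, and 5.24 ± 0.21, 5.19 ± 0.16 and 5.57 ± 0.26 in the same groups of cohort 1. In cohort 1, 0 of 16 SD arrays lay above the HC mean and 10 of 16 lay below the lowest of 5 HC arrays. In cohort 2, 12 of 20 lay above the HC mean and 2 of 20 below the lowest of 12 HC arrays, a limit passed less often by chance. HC arrays of cohort 2 were 0.63 ± 0.16 lower than those of cohort 1 in this probe set (adjusted p = 0.00344). Against HC it was at -0.19 ± 0.19 in 24NES and -0.45 ± 0.21 in 72NES (unadjusted p = 0.0418, adjusted p = 0.944), while the brightest Nr3c1 probe set was at 0.22 ± 0.16 and -0.01 ± 0.17. With each array left out in turn the brightest ran between 0.07 and 0.30 in 24NES and between -0.16 and 0.07 in 72NES. Both were lowest without HC replicate 3. The study's methods describe a lower array background in cohort 2, and its part in so dim a signal was not tested. The 3 probe sets had r of -0.02, 0.33 and -0.0038 with each other over 69 arrays.

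**Figure D2:**
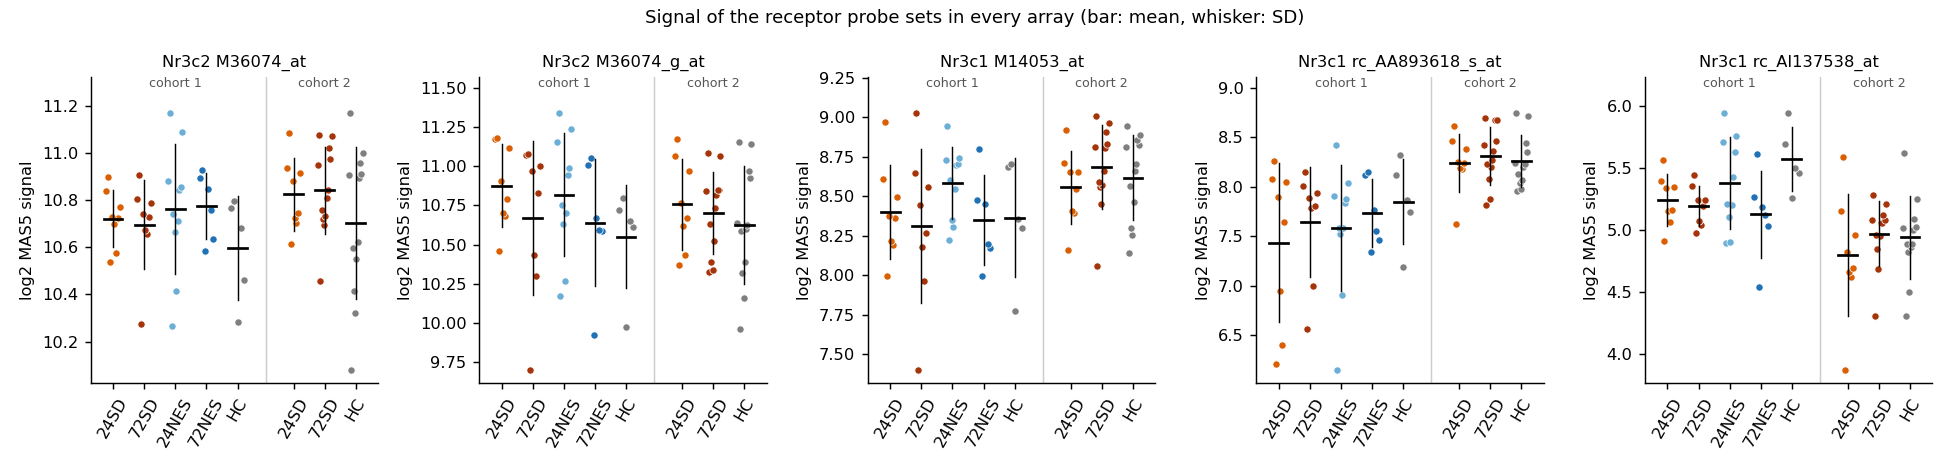
Log2 MAS5 signal of the 2 Nr3c2 and 3 Nr3c1 probe sets in every array, by group within cohort 1 (left of the line) and cohort 2; points are arrays, bars are means and whiskers are SD, and each panel has its own axis. Treated and HC arrays overlap throughout, and the dimmest Nr3c1 probe set averages 4.94 in HC of cohort 2 and 5.57 in HC of cohort 1.

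Fkbp4 had higher signal after 72 hours of SD in cohort 1 in all 3 of its probe sets and showed no such difference in cohort 2. The brightest (rc_AI231547_at) ran in cohort 1 between 10.63 and 10.88 with a median of 10.72 in 24SD and between 10.55 and 11.26 with a median of 10.96 in 72SD, and was 10.62, 10.83, 10.77, 10.60 and 10.63 in the 5 HC arrays. In cohort 2 it ran between 10.09 and 10.66 with a median of 10.58 in 24SD, between 10.14 and 10.72 with a median of 10.57 in 72SD and between 10.28 and 10.83 with a median of 10.47 in HC. In cohort 1, 6 of 8 72SD arrays lay above the highest of 5 HC arrays, and in cohort 2 0 of 12 lay above the highest of 12. The highest of 12 arrays is passed less often by chance than the highest of 5, so these counts do not compare directly. In cohort 1 the count was 2 of 8 for rc_AI136977_g_at and 6 of 8 for rc_AI136977_at.

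Within cohort 1 the 72SD differences of the 3 Fkbp4 probe sets from HC were 0.24 ± 0.099, 0.29 ± 0.12 and 0.32 ± 0.12, with unadjusted p of 0.0262, 0.0248 and 0.0159 and adjusted p of 0.595, 0.576 and 0.505 in the fit of every probe set. In cohort 2 they were 0.04 ± 0.075, 0.0032 ± 0.085 and -0.05 ± 0.078. Cohort 2 minus cohort 1 gave -0.20 ± 0.12, -0.29 ± 0.14 and -0.37 ± 0.14 for the 72SD response, the last with an unadjusted p of 0.00967 and an adjusted p of 0.431. No difference between the cohorts' responses passed for a member in the gene-level fit in limma. At 24 hours 0 of 4 passed, against 0.0371% of genes, with 0 of 4 at an unadjusted p under 0.05, against 8.57%. At 72 hours 0 of 4 passed, against 0.334%, with 0 of 4 at an unadjusted p under 0.05, against 9.57%. Over both cohorts the brightest probe set differed from HC by -0.0067 ± 0.062 at 24SD and 0.11 ± 0.058 at 72SD (adjusted p = 0.958 and 0.580).

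The Fkbp4 probe sets disagreed on NES. The brightest was 0.06 ± 0.13 above HC at 24NES and 0.18 ± 0.14 at 72NES, whereas rc_AI136977_g_at was at -0.22 ± 0.17 and 0.0059 ± 0.18. For 72SD against 72NES the 3 gave 0.06 ± 0.11, 0.28 ± 0.14 and 0.43 ± 0.18, the third with an unadjusted p of 0.0238 and an adjusted p of 0.726. Residual correlations among them were 0.27, 0.35 and 0.42 over 69 arrays, so the probe sets shared only part of their variation between animals. Across the 11 member probe sets, ordered by mean, a single step between neighbouring groups was larger than the SD of the arrays: rc_AI136977_at stood at 10.37 ± 0.23 in 72SD of cohort 1 and at 10.08 ± 0.23 in the next group, 24SD of cohort 1.

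**Figure D3:**
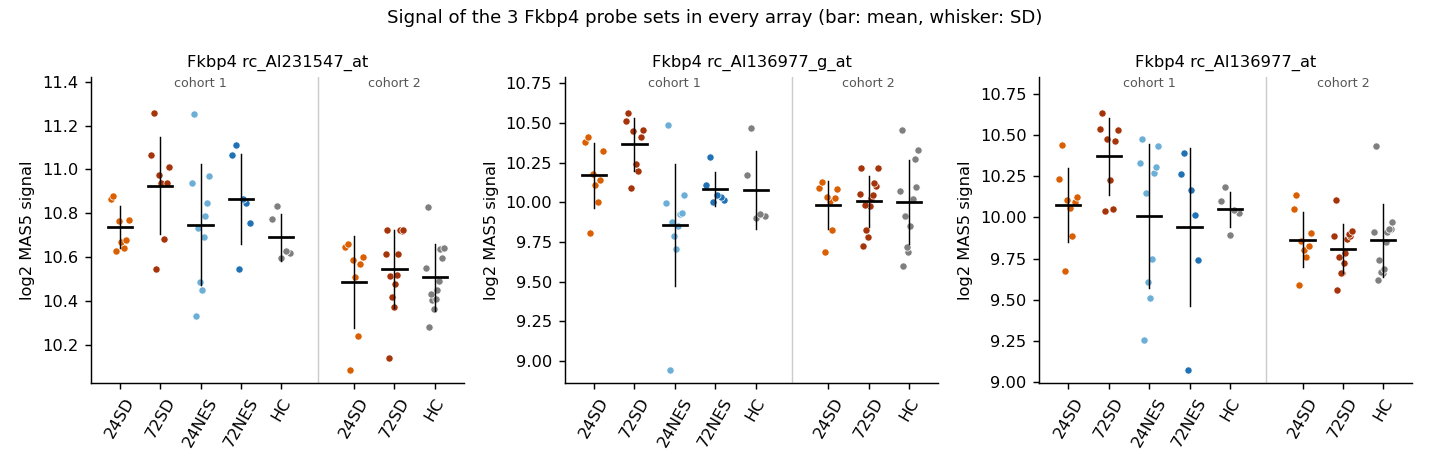
Log2 MAS5 signal of the 3 Fkbp4 probe sets in every array, by group within cohort 1 (left of the line) and cohort 2; points are arrays, bars are means and whiskers are SD. The 72SD mean of cohort 1 is the highest of all groups in the first panel, at 10.93, while 72SD of cohort 2 averages 10.55 beside 10.51 in HC of cohort 2.

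RefSeq promoter windows, 250 bases before to 50 bases after the annotated start, were at hand for 3 of the 5 members. Those of Fkbp4 and Crhbp are shown because the brightest probe sets of these genes had larger 72SD differences in cohort 1 (0.24 and 0.51) than that of Nr3c1 (-0.05). Capitals in the first mark the letters of a heat shock element core (GAANNTTC, position -137 from the start). In the second they mark those of a cAMP response element core (CGTCA, position -100) and of a TATA box (TATAAA, position -4, at the annotated start itself). Build GRCr8, minus strand of both chromosomes, written 5′ to 3′ in the sense of the gene.
Fkbp4, chr4:163397869-163398168: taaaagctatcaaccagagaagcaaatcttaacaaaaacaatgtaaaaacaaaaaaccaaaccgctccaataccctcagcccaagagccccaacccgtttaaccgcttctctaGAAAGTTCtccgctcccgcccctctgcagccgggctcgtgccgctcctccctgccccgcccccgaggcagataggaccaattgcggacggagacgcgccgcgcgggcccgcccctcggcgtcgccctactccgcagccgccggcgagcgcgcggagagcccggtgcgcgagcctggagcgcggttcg
Crhbp, chr2:28439397-28439696: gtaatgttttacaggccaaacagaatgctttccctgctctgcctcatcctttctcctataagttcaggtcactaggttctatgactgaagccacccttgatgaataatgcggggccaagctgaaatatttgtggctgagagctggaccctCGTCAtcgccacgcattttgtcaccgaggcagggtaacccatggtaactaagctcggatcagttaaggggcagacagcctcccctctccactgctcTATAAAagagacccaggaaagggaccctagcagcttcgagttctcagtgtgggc
On both strands of 33469 such windows of the rat annotation, GAANNTTC was found in 8.59%, CGTCA in 21.2% and TATAAA in 14.2%. The Fkbp4 window also held 3 matches to the GC box GGGCGG (in 33.1% of windows), which are not marked. The full cAMP response element TGACGTCA (in 1.83%) was in neither window. The full palindromic glucocorticoid response element (in 0.0149% of windows) and its single arm AGAACA, which the full element contains (in 20.7%), were in neither window nor in the 2 windows of Nr3c1. These are letter matches only.

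Crhbp had higher signal after SD, most clearly at 72 hours and in cohort 1. Its brighter probe set (AF003904mRNA_g_at) ran in cohort 1 between 9.27 and 10.01 with a median of 9.72 in 24SD and between 9.49 and 10.13 with a median of 9.81 in 72SD, and was 9.17, 9.11, 9.57, 9.39 and 9.29 in the 5 HC arrays. In cohort 2 it ran between 9.12 and 9.98 with a median of 9.78 in 24SD, between 8.95 and 10.03 with a median of 9.84 in 72SD and between 8.82 and 9.91 with a median of 9.42 in HC. In cohort 1, 7 of 8 72SD arrays exceeded the highest of 5 HC arrays. In cohort 2, 3 of 12 exceeded the highest of 12, which is passed less often by chance.

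The fitted differences of Crhbp from HC were 0.24 ± 0.098 at 24SD (adjusted p = 0.175) and 0.31 ± 0.092 at 72SD, a 1.24-fold higher signal with a 95% confidence interval of 1.09 to 1.41. With a p of 0.00127, rank 18 of 2697, the 72SD difference had an adjusted p of 0.187. At 72SD 0 of 4 members were called in limma, against 0.0371% of genes, and 2 of 4 had an unadjusted p under 0.05, against 8.49%. Over both durations together 0 of 4 passed the moderated F-test, against 0.371%, with Hsd11b1 at an adjusted p of 0.141 and Crhbp at 0.175. Both were under 0.05 before adjustment, as were 12.4% of all genes. In an analysis of variance modelled on the study's, on values standardized within cohort and with values over 2 SD from their treatment mean removed, but with the signal filter and the adjusted threshold used here in place of the study's presence filter and unadjusted threshold, both passed, with adjusted p of 0.00225 for Hsd11b1 and 0.0268 for Crhbp, among 113 genes called; without the removal neither did (0.133 and 0.151), among 10 genes called.

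Within cohort 1 alone, the Crhbp difference at 72SD was 0.51 ± 0.12 and passed the test (adjusted p = 0.0462, against 0.742% of genes called there). Over every probe set its adjusted p was 0.162. In cohort 2 the difference was 0.22 ± 0.13 (adjusted p = 0.691), where 0% of genes were called, so the missing call there was not particular to Crhbp. The second probe set (AF003904mRNA_at) parted the cohorts further. There 8 of 8 72SD arrays of cohort 1 lay above the highest HC array, with a difference of 0.54 ± 0.14, and cohort 2 gave 0.01 ± 0.13. Cohort 2 minus cohort 1 was -0.53 ± 0.21 for the second probe set (unadjusted p = 0.0138, adjusted p = 0.463) and -0.29 ± 0.20 for the brighter one (unadjusted p = 0.147). The HC arrays differed as well: in the second probe set they averaged 9.40 ± 0.25 in cohort 2 and 8.93 ± 0.20 in cohort 1, a difference of 0.47 ± 0.16 (adjusted p = 0.0257), and in the brighter one 9.49 ± 0.30 in cohort 2 and 9.31 ± 0.18 in cohort 1. The SD arrays were closer, with 72SD means of 9.41 in cohort 2 and 9.47 in cohort 1 for the second probe set. Between the HC groups 2 of 11 member probe sets were called, that of Crhbp and the dimmest of Nr3c1, against 21.9% of all probe sets. In the gene-level fit 0 of 4 members were called in limma, against 34.6% of genes, with 0 of 4 at an unadjusted p under 0.05, against 44.0%.

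At 24NES both Crhbp probe sets also lay above HC, by 0.20 ± 0.11 in the brighter (adjusted p = 0.395) and 0.43 ± 0.14 in the second (unadjusted p = 0.00567, adjusted p = 0.239), with 9 of 10 arrays above the HC mean in each. At 72NES the differences were 0.03 ± 0.12 and 0.21 ± 0.15. Against 72NES, 72SD was higher by 0.33 ± 0.14 in the second probe set, less than the 24NES difference of that probe set from HC. In the brighter probe set it was higher by 0.47 ± 0.11, a ratio of 1.39 with a 95% confidence interval of 1.18 to 1.63 (p = 0.000188, adjusted p = 0.228). There the 72SD arrays ran between 9.49 and 10.13 and the 72NES arrays between 9.14 and 9.60, so the groups overlapped at their edges. At 72 hours 0 of 4 members passed in limma, against 0% of genes, with 1 of 4 at an unadjusted p under 0.05, against 7.49%. At 24 hours SD and NES differed by 0.18 ± 0.10 in the brighter probe set and by 0.02 ± 0.12 in the second.

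The sum over the interneuron list, in which 12 of 14 genes were measured, ran in log2 between 15.29 and 15.53 in 24SD, between 15.27 and 15.53 in 72SD, between 15.29 and 15.57 in 72NES and between 15.30 and 15.42 in HC of cohort 1. Among single interneuron genes, at 72SD 3 of 11 were higher than in HC and 0 lower at an unadjusted p under 0.05, against 8.49% of all genes. Vip was at 0.37 ± 0.11 (adjusted p = 0.198), and 6 of the 11 lay above HC. At 24SD 1 was higher and 3 were lower at that threshold, against 19.2% of all genes. Between 72SD and 72NES 2 were higher, Vip by 0.45 ± 0.13, and 3 lower, against 7.49%. The blood list ran between 12.56 and 13.45 in 72SD and between 13.53 and 13.73 in HC of cohort 1, without overlap, and between 12.91 and 13.74 in 72SD and between 12.86 and 13.72 in HC of cohort 2. Their part in the Crhbp and Fkbp4 differences was not tested.

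**Figure D4:**
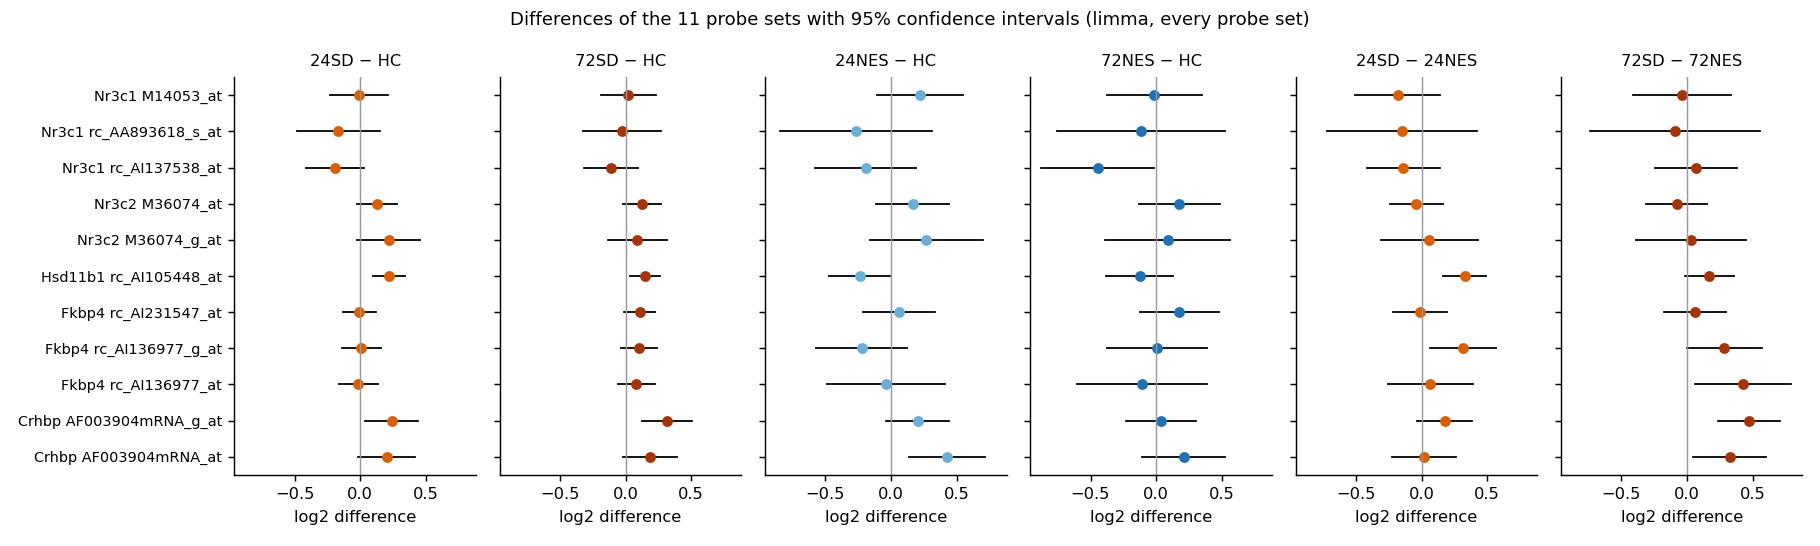
Differences of the 11 member probe sets in 6 comparisons, from the limma fit of every probe set; points are log2 differences and lines 95% confidence intervals, and the SD comparisons with HC cover both cohorts while the others cover cohort 1. Hsd11b1 lies above 0 in both SD comparisons with HC (0.22 and 0.15) and below 0 in both NES ones (-0.24 and -0.13). The brighter Crhbp probe set has its widest gap, 0.47, between 72SD and 72NES, and the second has its widest, 0.43, between 24NES and HC.

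The members varied from animal to animal in different ways once group and cohort means were removed (69 arrays; a description, since arrays share their scaling). Nr3c2 and Fkbp4 ran against each other in all 6 pairs of their probe sets, with r between -0.46 and -0.30, and Nr3c2 ran with Hsd11b1 (r = 0.35 and 0.31). Hsd11b1 and Crhbp were only loosely related (r = 0.21 in the brighter probe set and 0.13 in the second). Nr3c1 by its brightest probe set had r = 0.30 with the brighter of Nr3c2 and -0.03 with Hsd11b1.

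Among the genes tested, those most like Crhbp in their deviations were Npy (r = 0.55), the neuropeptide of many hippocampal interneurons, Vip (r = 0.53), the peptide of another interneuron class, and Sult1a1 (r = 0.53), a phenol sulfotransferase. For Fkbp4 they were the stress kinase Mapk14 (r = 0.70), the ubiquitin conjugating enzyme Ube2a (r = 0.63) and the endoplasmic reticulum cyclophilin Ppib (r = 0.61). For Nr3c2 they were the diacylglycerol kinase Dgkb (r = 0.68), the RNA ligase Rtcb (r = 0.66) and the ATP synthase subunit Atp5pb (r = 0.65). For Hsd11b1 they were the RNA polymerase subunit Polr3k (r = 0.65), the ubiquitin ligase subunit Vhl (r = 0.57) and the ribosomal protein gene Rpl18 (r = 0.56), and for the brightest Nr3c1 probe set Pias3 (r = 0.52), which encodes a SUMO ligase, Selenop (r = 0.49), a selenium carrier, and Cops8 (r = 0.49), of the COP9 signalosome. Arrays share library and scaling effects, so a high r does not tie these genes to a member.

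**Figure D5:**
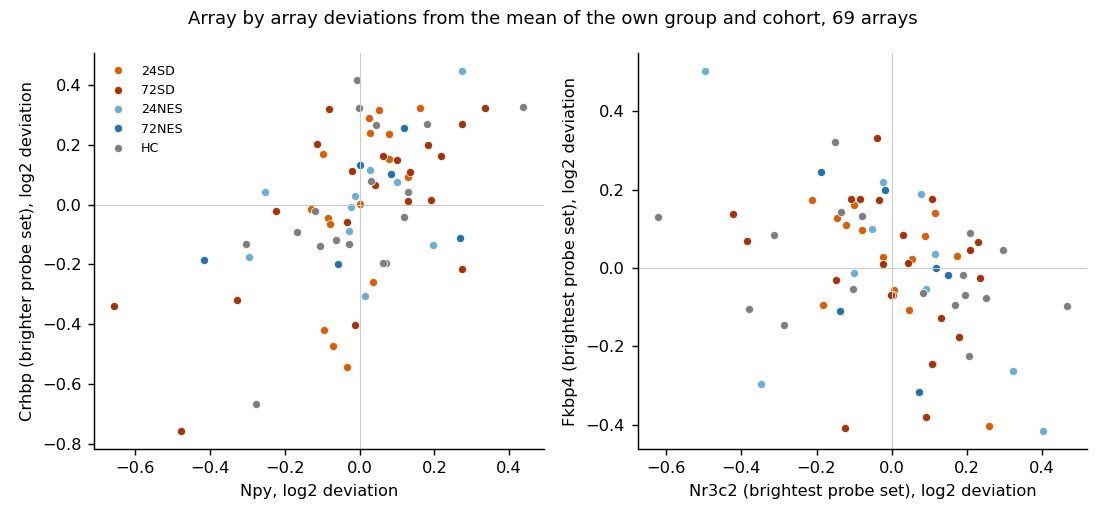
Deviations of single arrays from the mean of their own group and cohort, in log2 units, for 69 arrays coloured by group: Crhbp against Npy (r = 0.55) on the left and Fkbp4 against Nr3c2, each by its brightest probe set (r = -0.39), on the right. The points of all groups mix in both panels.

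Of 12 tested receptor chaperones and cochaperones 0 were called in limma in SD at 24 or 72 hours, with 1 of 12 at 24SD and 0 of 12 at 72SD at an unadjusted p under 0.05. Over all 2697 genes, 1.45% were called and 19.2% had an unadjusted p under 0.05 at 24SD, against which the counts of this list and of those that follow are to be read, and 0.0371% and 8.49% at 72SD. The median difference of the chaperones at 24SD was 0.04 against -0.02 over all 2697 genes. The 4 with the smallest p over both durations were Chordc1 (0.23 ± 0.10 at 24SD), an HSP90 cochaperone, Fkbp4 itself, the HSP70 family member Hspa4 (0.14 ± 0.078) and the cyclophilin Ppid (0.13 ± 0.085), a further partner of HSP90 in receptor complexes. At 24NES Ppid differed by 0.44 ± 0.14 (unadjusted p = 0.00591, adjusted p = 0.153) and Hspa4 by 0.32 ± 0.12. None of 9 tested coregulators was called at either SD duration in limma, with 1 of 9 at an unadjusted p under 0.05 at 24SD, below the 19.2% of all genes, which was Nr2f1 (0.16 ± 0.066), an orphan nuclear receptor.

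Most enzymes of steroid synthesis were dim: 18 of 29 listed genes were measured and 6 tested. Hsd11b1 was the 1 called. Hsd11b2, which inactivates corticosterone in the kidney, had a mean log2 signal of 5.77, at the 16.4 percentile of probe sets. Cyp7b1, which hydroxylates neurosteroids, differed by 0.09 ± 0.058 at 24SD, Tspo, of mitochondrial cholesterol handling, by -0.12 ± 0.073, and Hsd17b4, a peroxisomal enzyme, by -0.0068 ± 0.064. Of the CRH, vasopressin and ACTH genes 5 were tested and 0 called in limma, with 1 up and 3 down at an unadjusted p under 0.05 at 24SD, against 1.45% and 19.2% of all genes. Crhbp was the one above HC, while Pcsk2, a prohormone convertase, differed by -0.12 ± 0.049, the vasopressin receptor gene Avpr2 by -0.15 ± 0.067 and the vasopressin gene Avp by -0.19 ± 0.081. Crh itself was dim, with a mean log2 signal of 8.00.

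Nr1d2, a repressor of the circadian clock, rose by 0.35 ± 0.095 at 24SD (adjusted p = 0.0412), the 1 called of 12 receptors tested, and Esr2, the second estrogen receptor, differed by -0.30 ± 0.11 (adjusted p = 0.120). The immediate early receptors Nr4a2 and Nr4a1 differed by -0.17 ± 0.087 and -0.35 ± 0.20. Of 11 tested genes known to be induced by glucocorticoids 2 were called at 24SD, both up, against 1.45% of all genes (20 up and 19 down): Sult1a1 rose by 0.90 ± 0.17 (adjusted p = 0.00214) and Gpd1, glycerol-3-phosphate dehydrogenase, by 1.10 ± 0.30 (adjusted p = 0.0412). Cebpb (0.32 ± 0.098, adjusted p = 0.0735) and Klf9 (0.17 ± 0.066), both transcription factors, were above HC without passing. At 72SD 0 of the 11 were called in limma, with 2 up and 1 down at an unadjusted p under 0.05, the last being the phosphatase gene Dusp1 (-0.29 ± 0.13). The median of the 11 was 0.17 at 24SD and 0.12 at 72SD, against -0.02 and -0.0074 over all genes. In NES against HC of cohort 1 their median was 0.27 at 24 hours and 0.27 at 72 hours, against -0.02 and 0.014 over all genes. None was called in NES. At an unadjusted p under 0.05, 4 were up and 1 down at 24NES, against 15.1% of all genes. At 72NES 2 were up and 0 down, against 5.97%. Sult1a1 was also the gene called between 24SD and 24NES, 0.63 ± 0.11 higher in 24SD (adjusted p = 0.00406).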

How the data were processed

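CA1 RNA of 69 rats was hybridized to 1 Affymetrix array per animal. The deposited intensity of a probe set is the linear MAS5 signal that the authors computed, scaled per array; the MAS5 version is not given in the sources used here. The table held 8799 probe sets, 59 of them controls. Symbols came from the platform annotation, and 99.7% of the probe sets with 1 symbol matched RefSeq by gene number. No genome build is given in the sources used here. Promoter sequences are RefSeq's, build GRCr8; Nr3c2 and Hsd11b1 had no entry.

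Signals were floored at 1 and log2 transformed. Fits used limma 3.58.1 (lmFit, eBayes) in R 4.3.3: SD on 53 arrays with cohort as a term, NES on 21 arrays of cohort 1, SD against NES on the 37 arrays of cohort 1, and the cohorts' SD responses as an interaction. Intervals are at 95%. The scripts were tested on simulated data. The members, gene lists and tests were chosen with earlier results of these data known. Genes named are all members, up to 4 per pathway list with the smallest F-test p, any pathway gene past the adjusted test in a contrast used, and the 3 most alike per member. Marker genes, Hsd11b2, Crh and Dusp1 were named after their values were seen. Alternatives were quantile normalization, median centring, flooring at 50, testing without the signal filter, on the upper 40% or over every probe set, robust eBayes, cohort left out or fitted alone, an analysis of variance modelled on the study's with and without removal of values, and each array left out in turn. Detection calls, scanner readings, hormone and protein data are not used here. The number of arrays limits the precision.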

Additional observations from a re-analysis of the deposited data

Results flagged for a closer look

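Over 11 member probe sets and the 6 groups of 5 to 10 arrays, 66 sets of values were examined and 8 held an array far from the rest of its group, where about 1 in 20 would by chance. For Hsd11b1 these were the lowest 24SD array of cohort 1 (replicate 24, log2 signal 12.40, next 12.57), the lowest 24NES array (replicate 58, 11.74, next 12.21) and the highest 72NES array (replicate 71, 12.76, next 12.37). Without replicate 58 the Hsd11b1 difference of 24SD from 24NES was 0.27 ± 0.067 (adjusted p = 0.173, between 0.0559 and 0.391 over all arrays left out in turn). Without replicate 71 that of 72SD from 72NES was 0.24 ± 0.088 (adjusted p = 0.938).

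For Nr3c2 the lowest 72SD array of cohort 1 (replicate 43) was at 10.27 in the brighter probe set, next 10.66, and the lowest HC array of cohort 1 (replicate 2) at 9.97 in the second, next 10.61. In Crhbp the lowest 24SD array of cohort 1 (replicate 25) was at 8.79 in the second probe set, next 9.28. In Fkbp4 the lowest 24NES array (replicate 61) was at 8.94 in rc_AI136977_g_at, next 9.70, and in Nr3c1 the lowest 24SD array of cohort 2 (replicate 35) was at 7.62 in rc_AA893618_s_at, next 8.18. The reasons were not tested.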

How the results depend on the processing

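The 24SD call of Hsd11b1 was lost with quantile normalization (0.20), with no signal filter (0.22), over every probe set (0.22), with cohort left out (0.20) and in cohort 1 (0.094) or cohort 2 alone (0.30), at adjusted p between 0.0258 and 0.587 over the alternatives; leaving out 1 array gave 0.20 to 0.26. The 72SD difference of Crhbp passed in cohort 1 alone (0.51), with 0.22 to 0.51 over the alternatives. In cohort 2 alone 0% of all genes were called at 24SD or 72SD. In the analysis of variance modelled on the study's with removal of values the F-tests of Hsd11b1 (adjusted p = 0.00225) and Crhbp (0.0268) passed. Without the removal, which itself narrows the spread within groups, neither did (0.133 and 0.151). Leaving out 24SD replicate 31 also brought the F-test of Hsd11b1 to 0.0442, in a range of 0.0442 to 0.221.

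Signs turned in values near 0. Fkbp4 at 24SD was at 0.00844 with quantile normalization, 0.0261 with median centring, 0.0511 with cohort left out and 0.0471 in cohort 1 alone, and 24SD against 24NES at 0.00129 and 0.0129 with the first 2 of these. Nr3c1 at 24SD was at 0.0192 with quantile normalization, 0.0230 with median centring and 0.0373 in cohort 1 alone, and at 72SD at -0.00854 with cohort left out and -0.0530 in cohort 1 alone. With 1 array left out, signs also turned within these ranges: Fkbp4 at 24SD (-0.0214 to 0.0231), against 24NES (-0.0580 to 0.0440) and at 72SD against 72NES (-0.00207 to 0.116), Nr3c1 at 24SD (-0.0553 to 0.0251), 72SD (-0.0220 to 0.0673), 72NES (-0.162 to 0.0704) and 72SD against 72NES (-0.141 to 0.0915), Crhbp at 72NES (-0.0168 to 0.102) and Nr3c2 at 24SD against 24NES (-0.0961 to 0.00406).

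No paired analysis was possible because no groups shared subject numbers. Median centring moved the calls of all genes at 24SD to 30 up and 4 down, against 20 up and 19 down as deposited. Sign and side of the threshold were kept in 299 of 319 values recomputed under an alternative and in 1408 of 1480 with 1 array left out. For F-tests only the side of the threshold was counted. Only 1 of the main values was a call, so these shares say little about calls. That call, Hsd11b1 at 24SD, was kept in 4 of 10 alternatives and in 22 of 53 fits with 1 array left out. Under quantile normalization Rpl24, Atp5f1d and Stip1 entered the lists of most alike genes. Dim Nr3c1 probe sets and 5 HC arrays in cohort 1 limit the resolution.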
